A study of Mus musculus with 39 samples.

Results

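Endothelial cells line blood and lymphatic vessels, and 36 genes that mark these cells or their activation were followed across lung and colon of mice with and without the gene Cd177. The 36 were chosen by symbol and matched to the Ensembl identifiers of each table, 36 of 55357 genes, and all 36 were found in both tables. Deposited RNA-seq expression values covered 39 libraries in 8 groups. All mice had the C57BL/6N background and were either WT mice or Cd177 KO mice, and each genotype had a sham group and a group with acute pancreatitis (AP). Every group held 5 libraries apart from the KO AP colon, which held 4, numbered 1, 3, 4 and 5. The sources used here do not give the age of the mice, how pancreatitis was induced, the time after induction or how the knockout was made. The labels do not say whether the libraries of a group came from separate animals, so p-values measure the spread between libraries.

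Endothelial cells hold together through VE-cadherin, the product of Cdh5, and read growth and stability signals through receptors for VEGF (Kdr, Flt1, Flt4) and angiopoietin (Tek, with Tie1 as partner). ETS and SOX transcription factors (Erg, Fli1, Sox17, Sox18) keep their identity. In inflammation these cells present selectins (Sele, Selp) and the adhesion molecules Icam1 and Vcam1, on which leukocytes roll and stop, and shift the balance between clotting (Vwf) and its restraint (Thbd, Procr). The lung is unusually rich in capillaries, with capillary genes such as Ednrb, Gpihbp1 and Tmem100. Lyve1 marks lymphatic vessels and is also made by some macrophages, Kit is also found on mast cells and interstitial cells of Cajal, and Icam1 is also found on lung epithelium.

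The RefSeq table of promoters (GRCm38.p6, 250 bases before to 50 after a gene's start) held 19 of the 36 genes. Icam1 and Kdr are shown because the first is the classical target of inflammatory NF-kappa-B signalling, the second a receptor that defines endothelium, and both were lower in KO lungs. Capitals mark matches to the NF-kappa-B consensus on either strand, written 5′ to 3′ on the strand of the gene. The Icam1 promoter lies at chr9:21015690-21015989, plus strand, and the Kdr promoter at chr5:75978406-75978705, minus strand.
Icam1: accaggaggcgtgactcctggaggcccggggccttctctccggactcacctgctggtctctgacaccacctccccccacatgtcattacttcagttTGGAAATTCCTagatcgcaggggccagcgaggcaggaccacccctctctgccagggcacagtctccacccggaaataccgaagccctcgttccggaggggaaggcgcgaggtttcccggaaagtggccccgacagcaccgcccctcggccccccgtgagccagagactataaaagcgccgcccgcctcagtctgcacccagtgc
Kdr: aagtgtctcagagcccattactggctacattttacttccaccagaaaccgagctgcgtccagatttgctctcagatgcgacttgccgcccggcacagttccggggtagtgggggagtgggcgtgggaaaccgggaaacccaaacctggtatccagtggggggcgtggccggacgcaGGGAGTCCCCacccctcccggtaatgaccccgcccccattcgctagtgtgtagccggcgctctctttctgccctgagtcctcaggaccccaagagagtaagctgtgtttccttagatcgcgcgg
The match in Icam1 begins 154 bases upstream of the start and overlaps a second one 153 bases upstream, and that in Kdr begins 74 bases upstream. Such a match was present in 11.5% of all 32851 promoters in the table and in 5 of the 25 promoters of these genes. They belong to 4 of the 19 genes, Icam1, Kdr, Flt1 and Kit, and the overlapping Kit promoters hold the same match. The ETS core GGAAGT, on either strand, was present in 23.8% of all promoters and in 7 of the 25, from 6 of the 19 genes. A match describes these letters and shows no binding.

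The targeted gene followed the labels: Cd177 ranged from 1.31 to 4.18 FPKM (fragments per kilobase of transcript, scaled to library size) across 10 WT lungs and from 38.5 to 76.4 FPKM across 10 WT colons, and was listed at 0 in all 10 KO lung and 9 KO colon libraries. The steps between low FPKM values gave totals of 57.9 to 71.2 M reads in WT lung and of 77.0 to 95.4 M reads in KO lung. In colon they were 55.6 to 78.3 M reads in WT and 77.7 to 98.6 M reads in KO. The share of even numbers among read counts of up to 20 was 46.7% to 49.5% in WT lung against 53.8% to 58.8% in KO lung, and 45.2% to 50.9% against 54.5% to 58.9% in colon. Depth in lung and the even share in both tissues thus did not overlap between genotypes, and a difference in library preparation or counting cannot be told apart from genotype in any comparison of KO with WT. The lung libraries KO AP 3, KO sham 4 and KO sham 5 had the lowest mean correlations with their own group, 0.929, 0.938 and 0.936, and the colon libraries KO AP 4 and 5 had the highest mitochondrial shares, 19.1% and 17.8% of FPKM. Counts of called genes are given with and without these libraries.

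The endothelial genes were far more abundant in lung than in colon. In lung 34 of the 36 reached at least 1 FPKM in at least 4 of the 20 libraries, the condition for testing, and Sele and Prox1 did not. In colon, 31 of 36 did, without Sele, Prox1, Selp, Angpt2 and Aplnr. Cdh5 averaged 272 ± 18.7 FPKM (SD, n = 5) in WT sham lung and 4.54 ± 0.389 FPKM in WT sham colon. Egfl7 (518 ± 23.6 FPKM) and Ramp2 (503 ± 79 FPKM) were the most abundant in lung, Plvap (33.3 ± 2.99 FPKM) and Ramp2 (21.8 ± 23.5 FPKM) in colon. Of the 36, Procr alone had a lower mean in WT sham lung (2.65 ± 0.268 FPKM) than in WT sham colon (6.73 ± 1.299 FPKM). The tables of the tissues were normalised separately, so these levels are set side by side without a test. In bulk tissue, fewer endothelial cells and less RNA per endothelial cell cannot be told apart.

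Genotype was compared within each treatment and tissue by limma on log2(FPKM + 1), on which changes of low genes come out too small, with Benjamini-Hochberg adjustment over all genes tested and a threshold of 0.05. In AP lung, 23 of 34 endothelial genes were lower in KO than in WT, against 28.1% of all 15978 genes tested, and 2 were higher, Procr and Egfl7, against 27.6%. In sham lung, 18 of 34 were lower, against 30% of all genes, and the same 2 were higher, against 28.8%. The median log2 difference was -0.825 in AP and -0.627 in sham, against 0.004 and -0.011 over all genes. Without the 3 KO lung libraries named above, 26 were called in AP and 25 in sham, against 25 and 20 with them. Of these, KO sham 4 and 5 had the highest mean level of other endothelial genes in their group. That mean was 5.83 and 5.65 on the log2 scale, against 4.08 to 5.56 in the other KO sham lungs. Leaving them out thus lowers the KO sham level of such genes, and the added sham calls are no independent support. With FPKM rescaled to TPM, the median of all lung genes moved to -0.182 in AP and -0.256 in sham, and the share of higher calls among all calls from 49.5% to 35.1% and from 49% to 31.8%.

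In AP colon, 22 of 31 endothelial genes were lower in KO, against 10.9% of all 15001 genes tested, and none was higher, against 7.37%. In sham colon, 13 of 31 were lower, against 15.4% of all genes, and none was higher, against 16%. At an unadjusted p under 0.05 in limma, 23 passed in AP and 18 in sham, all of them with negative differences. Of all genes, 33.1% and 42.4% passed in either direction. The median log2 difference was -0.777 in AP and -0.516 in sham, against -0.011 and 0.011 over all genes. Without KO AP replicates 4 and 5, 20 were called in AP. With TPM the median of all colon genes moved to -0.128 in AP and -0.151 in sham, and the share of higher calls from 40.3% to 23.5% and from 51% to 31.8%. With scaling to a common upper quartile that share was 41% in sham colon.

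**Figure D1:**
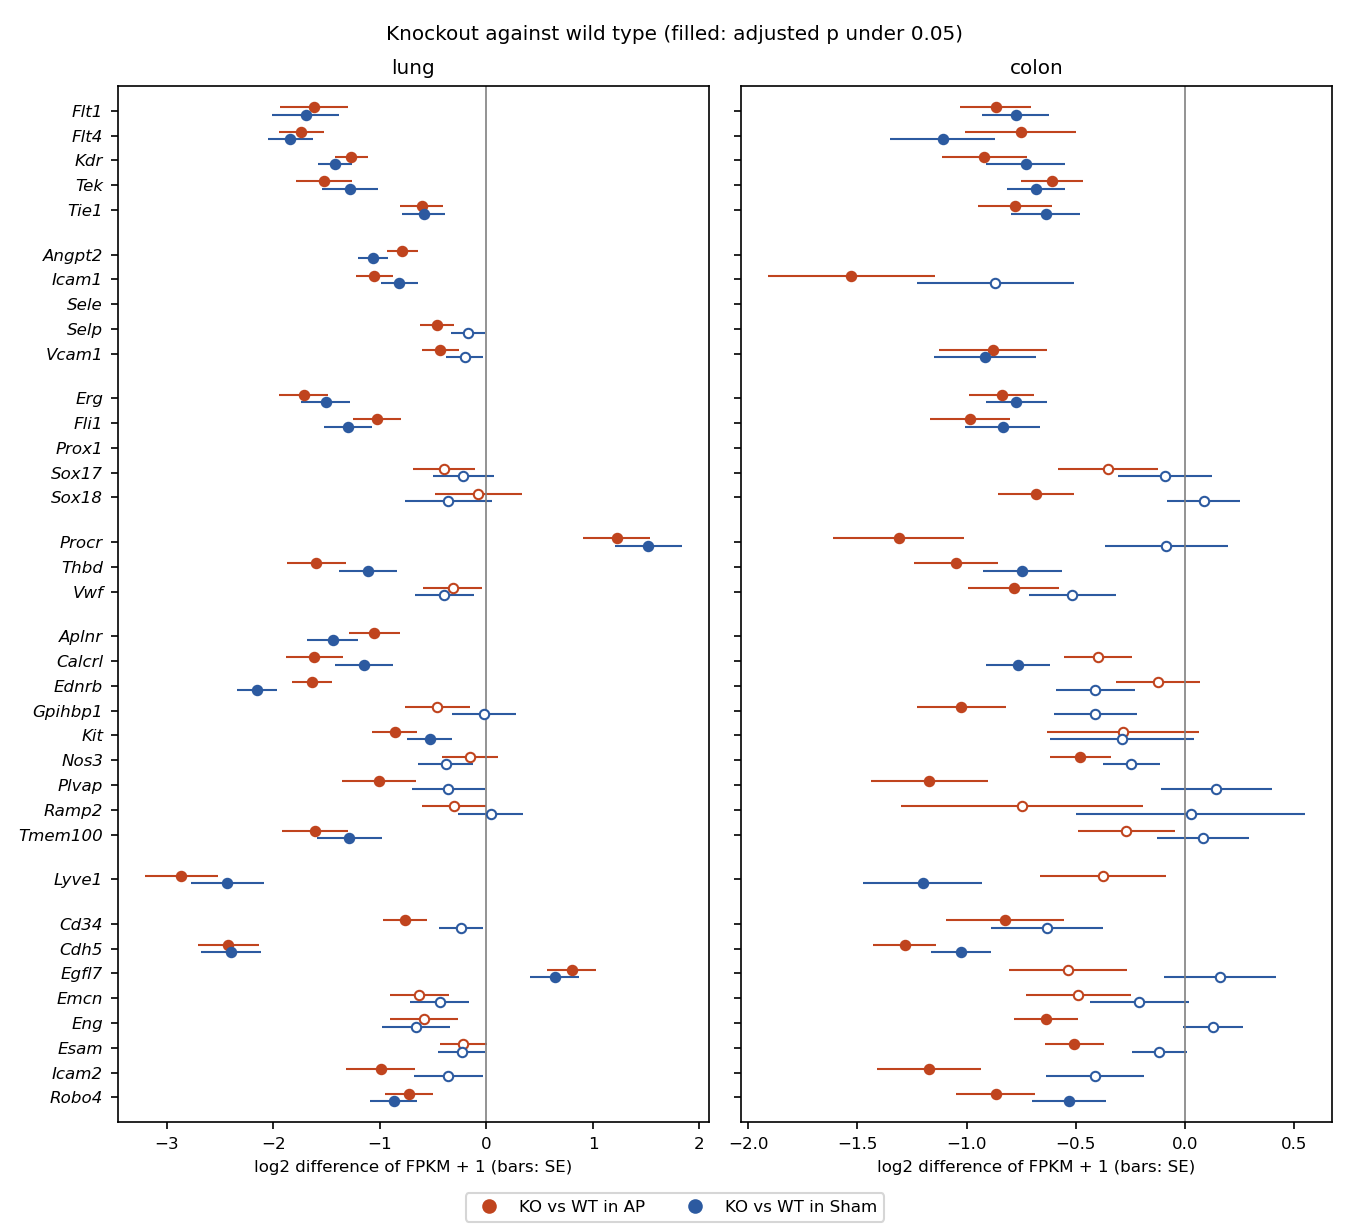
Log2 difference of FPKM + 1 between KO and WT for each gene (points, with SE bars), in AP (red) and after sham (blue), for lung at left and colon at right; genes are grouped by role and filled points have an adjusted p under 0.05. Rows without points were not tested. Most lung points lie left of 0 with Procr and Egfl7 to the right, and all 31 colon points in AP lie left of 0.

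The receptors moved most uniformly. All 5 VEGF and Tie receptors, Kdr, Flt1, Flt4, Tek and Tie1, were lower in KO in both tissues and both treatments, with list medians of -1.53 in AP lung, -1.42 in sham lung, -0.777 in AP colon and -0.73 in sham colon. Flt4, the receptor of VEGF-C that serves lymphatic growth, fell most in lung. Flt4 stood at 17.2, 21.04, 19.9, 19.7 and 21.2 FPKM in the WT sham lungs and at 14.7, 15.8, 16.9, 8.86 and 17.5 FPKM in the WT AP lungs. In KO lungs Flt4 stood at 2.599, 4.34, 5.67, 5.53 and 6.803 FPKM after sham and at 2.56, 3.08, 3.18, 3.61 and 6.43 FPKM in AP. The 10 KO lungs all lay below the lowest WT lung. The difference for Flt4 was -1.74 ± 0.21 (SE) on the log2 scale in AP (adjusted p = 3.45e-06, limma) and -1.84 ± 0.21 after sham. Kdr, the main signalling receptor for VEGF-A, was 69.7 ± 5.89 FPKM (SD, n = 5) in WT AP lung and 28.3 ± 1.53 FPKM in KO AP lung, a difference of -1.27 ± 0.16. Flt1, which binds VEGF as a decoy, differed by -1.62 ± 0.32, and Tek, the angiopoietin receptor, by -1.52 ± 0.26. Tie1 moved least, by -0.61 ± 0.20 (adjusted p = 0.0163, limma), and its call was lost after correction for transcript length in both treatments (adjusted p = 0.0559 and 0.105), the sham call also without KO sham replicate 1 (0.0594). In colon the 5 differences lay between -0.61 (Tek) and -0.92 (Kdr) in AP. No KO colon reached 1 FPKM of Flt4, which passed the filter in colon through WT libraries alone, so its colon tests are descriptions. The call of Flt4 in AP colon (adjusted p = 0.0471) was lost in 12 of 19 fits that each left out 1 library (adjusted p up to 0.125, without WT AP replicate 2) and without KO AP replicates 4 and 5 (0.0854).

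Among the 8 surface and junction genes, Cdh5 (ENSMUSG00000031871, chromosome 8, 104101625 to 104144511 on the plus strand of GRCm38), whose VE-cadherin closes the junctions between endothelial cells, showed the widest gap. Cdh5 stood at 246, 263, 288, 292 and 273 FPKM in the WT sham lungs and at 241, 241, 232, 183 and 237 FPKM in the WT AP lungs. In KO lungs Cdh5 stood at 20.97, 43.7, 80.9, 103 and 43.4 FPKM after sham and at 35.3, 29, 47.9, 43.4 and 56.4 FPKM in AP. Each KO lung lay below every WT lung, the highest KO value being 103 FPKM and the lowest WT value 183 FPKM. Cdh5 was 5.36-fold lower in KO AP lung on the FPKM + 1 scale, -2.42 ± 0.28 in log2 (adjusted p = 2.65e-06, limma), and -2.40 ± 0.28 after sham. Cdh5 stood at 4.22, 4.15, 5.02, 4.87 and 4.45 FPKM in the WT sham colons and at 3.56, 4.12, 4.46, 3.07 and 3.16 FPKM in the WT AP colons. In KO colons Cdh5 stood at 2.03, 1.26, 1.62, 1.64 and 2.13 FPKM after sham and at 0.8296, 0.462, 0.982 and 1.496 FPKM in AP. In colon too the 9 KO libraries lay below all 10 WT libraries. The colon differences were -1.28 ± 0.15 in AP (adjusted p = 0.000104) and -1.02 ± 0.14 after sham (adjusted p = 0.000106), the smallest p of any tested gene of the 36 in either comparison.

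Of the other junction genes, Robo4, a guidance receptor that stabilises vessels, was lower in both tissues and treatments, by -0.73 ± 0.22 in AP lung and -0.87 ± 0.18 in AP colon. Its AP lung call was lost with length correction (-0.47, adjusted p = 0.0638). Its sham colon call was lost with length correction (adjusted p = 0.135), with a pseudocount of 0.1 (0.075), without the filter on low values (0.0547) and in 3 of 19 fits that left out 1 library (up to 0.0653, without WT sham replicate 3). Icam2, a constitutive ligand for leukocyte integrins, differed by -0.99 ± 0.32 in AP lung and -1.17 ± 0.24 in AP colon, with neither sham difference called; both passed with length correction (adjusted p = 0.0336 in lung and 0.0461 in colon). Cd34, a sialomucin also found on fibroblasts, was called lower in AP in both tissues (-0.76 ± 0.21 and -0.83 ± 0.27); the colon call was lost in 9 of 19 fits that left out 1 library (adjusted p up to 0.157, without KO AP replicate 3) and without KO AP replicates 4 and 5 (0.0587). Esam, a tight junction adhesion molecule, and Eng, endoglin, a co-receptor for BMP ligands, were called in AP colon, at -0.51 ± 0.13 and -0.64 ± 0.15; the call of Esam was lost without KO AP replicate 4 (adjusted p = 0.0515) and with only the compared groups fitted (0.0503). Emcn, a mucin of capillaries and veins, differed by -0.63 ± 0.28 in AP lung and missed the threshold (adjusted p = 0.0592, limma). Without the 3 KO lung libraries that stand apart, Emcn was called lower in AP lung (-0.72 ± 0.16, adjusted p = 0.000686) and in sham lung (-0.99 ± 0.17, adjusted p = 8.47e-05). Emcn was also called in both lung treatments with TPM scaling (adjusted p = 0.00741 in AP and 0.0169 after sham) and with library weights, and in AP colon without KO AP replicates 4 and 5 (0.021). Without those 3 lung libraries Eng (-1.02 ± 0.35, adjusted p = 0.0176, limma), Icam2 (-0.86 ± 0.30, 0.0186), Esam (-0.56 ± 0.20, 0.0211) and Cd34 (-0.57 ± 0.15, 0.00377) were also called lower in sham lung. KO sham 4 and 5 held the highest KO sham values of Emcn, Icam2, Esam and Cd34, and KO sham 4 that of Eng. Leaving them out thus lowers these KO means. In sham lung Eng passed with TPM scaling as well (adjusted p = 0.0203, limma). Esam passed after sham with length correction (0.0429 in lung and 0.0284 in colon), and Eng in AP lung with library weights (0.0198). The difference between treatments was called for none of these 6 genes, and that between tissues was not tested.

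Egfl7, a secreted endothelial protein whose gene hosts miR-126, went the other way in lung. Egfl7 stood at 483, 512, 547, 526 and 522 FPKM in the WT sham lungs and at 445, 484, 384, 596 and 384 FPKM in the WT AP lungs. In KO lungs Egfl7 stood at 606, 783, 723, 1077 and 928 FPKM after sham and at 710.0, 847, 417, 907 and 1340 FPKM in AP. After sham each KO lung was above each WT lung, whereas in AP the KO library at 417 FPKM lay inside the WT range. Egfl7 differed by 0.80 ± 0.23 in AP (adjusted p = 0.00662, limma) and 0.64 ± 0.23 after sham (adjusted p = 0.0235). The sham call was lost with TPM scaling (0.36 ± 0.23, adjusted p = 0.18) and without KO sham replicate 4 (adjusted p = 0.06), and both calls with length correction (adjusted p = 0.0675 in AP and 0.304 after sham). Its exons overlap Agpat2, Gm20532, Mir126a and Mir126b in the GRCm38 annotation and strand-specific counting is not stated, so its level is uncertain. No call was made in colon, where the AP difference passed without KO AP replicate 5 (adjusted p = 0.00899).

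**Figure D2:**
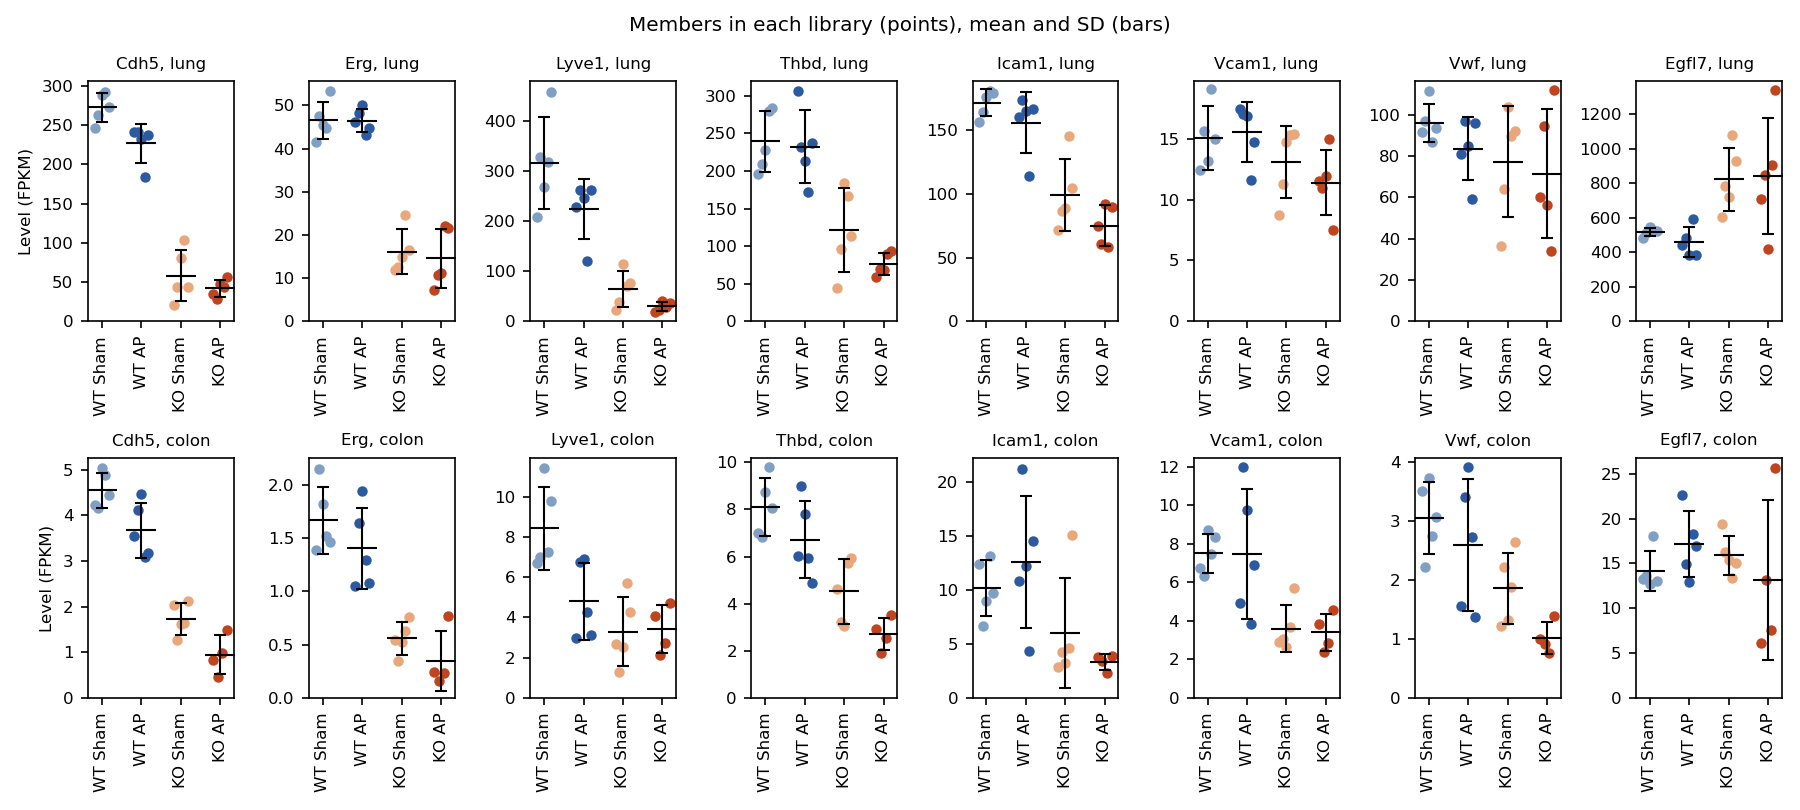
FPKM of 8 genes in each library (points) with the group mean and SD (bars), lung above and colon below; groups from left to right are WT sham, WT AP, KO sham and KO AP. Cdh5 in KO lungs reaches at most 103 FPKM against at least 183 FPKM in WT lungs, whereas Vwf overlaps between all lung groups and Egfl7 is above WT in KO sham lungs.

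The transcription factors split. Erg and Fli1, ETS factors that keep endothelial identity and are also active in blood cells in the case of Fli1, were lower in both tissues and treatments, while Sox17 was called in no comparison and Sox18 in AP colon alone. Fli1 stood at 11.3, 15.3, 11.8, 12.8 and 13.02 FPKM in the WT sham lungs and at 9.32, 10.1, 9.99, 9.68 and 10.02 FPKM in the WT AP lungs. In KO lungs Fli1 stood at 1.99, 3.75, 5.11, 8.896 and 5.37 FPKM after sham and at 2.45, 4.08, 6.01, 5.28 and 4.48 FPKM in AP. The highest KO value, 8.9 FPKM, lay below the lowest WT value, 9.32 FPKM. Fli1 differed by -1.03 ± 0.23 in AP lung and by -1.30 ± 0.23 in sham lung. Erg was 46.4 ± 2.71 FPKM in WT AP lung and 14.6 ± 6.81 FPKM in KO AP lung (SD, n = 5 each), a difference of -1.72 ± 0.23 (adjusted p = 7.55e-06, limma). Erg stood at 1.39, 2.15, 1.82, 1.52 and 1.46 FPKM in the WT sham colons and at 1.05, 1.64, 1.94, 1.297 and 1.08 FPKM in the WT AP colons. In KO colons Erg stood at 0.541, 0.345, 0.5198, 0.6296 and 0.761 FPKM after sham and at 0.239, 0.159, 0.231 and 0.764 FPKM in AP. All 9 KO colons were below all 10 WT colons for Erg, with differences of -0.84 ± 0.15 in AP (adjusted p = 0.00168) and -0.77 ± 0.14 after sham. No KO colon reached 1 FPKM of Erg, so it passed the filter in colon through WT libraries alone. Its separation and p-values in colon are therefore descriptions. With a pseudocount of 0.1 in place of 1 the AP difference was -1.88.

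Sox17, a factor of arterial endothelium, differed by -0.40 ± 0.29 in AP lung and -0.35 ± 0.23 in AP colon, neither called. Sox18 stood at 4.25, 4.79, 5.16, 5.303 and 2.899 FPKM in the WT sham colons and at 4.48, 4.201, 3.81, 5.16 and 2.76 FPKM in the WT AP colons. In KO colons Sox18 stood at 4.44, 3.48, 5.52, 5.62 and 4.87 FPKM after sham and at 1.89, 1.53, 2.36 and 2.89 FPKM in AP. Sox18, which acts in vessel and lymphatic development, lay lower in the KO AP colons than in the KO sham colons, without overlap, and differed between genotypes by -0.68 ± 0.18 in AP (adjusted p = 0.0132, limma) and 0.09 ± 0.17 after sham (adjusted p = 0.726). In lung Sox18 differed by -0.08 ± 0.41 in AP, with KO AP replicate 5 at 290.0 FPKM against 66.1 to 79.3 FPKM in the other 4. Prox1, the master factor of lymphatic identity, stayed below the filter; its mean was 0.209 FPKM in KO AP lung against 0.403 FPKM in WT AP lung (exact two-sided permutation test, p = 0.0317, unadjusted) and 0.241 against 0.448 FPKM after sham (exact p = 0.0159). In colon Prox1 was 0.239 against 0.277 FPKM in AP (exact p = 0.571) and 0.186 against 0.365 FPKM after sham (exact p = 0.0397).

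Capillary and vascular tone genes were lower in 6 of 9 cases in AP lung and 5 of 9 in sham lung, with list medians of -1.01 and -0.532. Ednrb, the endothelin receptor of capillary endothelium, had the smallest p of the 36 in lung. Ednrb stood at 32.6, 46.1, 42.5, 49.3 and 53.8 FPKM in the WT sham lungs and at 40.5, 35.2, 34.4, 34.1 and 39.1 FPKM in the WT AP lungs. In KO lungs Ednrb stood at 5.55, 8.28, 10.9, 13.3 and 9.47 FPKM after sham and at 7.86, 11.1, 9.45, 13.1 and 15.3 FPKM in AP. The highest KO lung, at 15.3 FPKM, was under the lowest WT lung, at 32.6 FPKM. Ednrb differed by -1.64 ± 0.19 in AP (adjusted p = 2.00e-06, limma) and by -2.15 ± 0.19 after sham (adjusted p = 6.94e-08). Calcrl, the receptor for adrenomedullin, differed by -1.62 ± 0.27, Tmem100, a BMP-dependent capillary gene, by -1.61 ± 0.31, Aplnr, the apelin receptor, by -1.05 ± 0.24, and Kit, the stem cell factor receptor, by -0.86 ± 0.21. Plvap, which forms the diaphragms of fenestrae and caveolae, was called in AP (-1.01 ± 0.34, adjusted p = 0.0185, limma), and not without KO AP replicate 2 (adjusted p = 0.0549). Its sham difference was called without the 3 KO libraries that stand apart (-0.90 ± 0.31, adjusted p = 0.0189, limma) and with library weights (0.0178). KO sham 4 and 5, left out in the former fit, held the highest KO sham values of Plvap. The sham call of Kit was lost in 7 of 20 fits that each left out 1 library (adjusted p up to 0.0956, without KO sham replicate 5) without the 3 KO libraries that stand apart (adjusted p = 0.0521), and with length correction, after which the difference was -0.15 ± 0.19 (adjusted p = 0.515).

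Ramp2, Gpihbp1 and Nos3 were not called in lung. Ramp2, the partner that makes Calcrl an adrenomedullin receptor, differed by -0.30 ± 0.30 in AP while Calcrl fell. Gpihbp1, which carries lipoprotein lipase to the capillary surface, differed by -0.46 ± 0.30, and Nos3, which makes nitric oxide, by -0.16 ± 0.26. Gpihbp1 in AP lung passed with length correction (-0.78 ± 0.31, adjusted p = 0.0403), and Ramp2 with a replicate block and length correction together (adjusted p = 0.0497). Ramp2 exons overlap Vps25 and Nos3 exons overlap Atg9b in the GRCm38 annotation, so reads could be shared. Eng exons overlap Fpgs, and those of Sox17, Cd34, Icam1, Vcam1, Selp and Prox1 overlap predicted or antisense genes, with the same limit. Ramp2 was uneven in colon, where WT sham replicate 2, WT AP replicate 3 and KO sham replicate 1 held 63.7, 40.5 and 44.5 FPKM against 4.07 to 22.4 FPKM elsewhere.

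In colon 3 of the 8 tested genes of this group were lower in AP, Plvap, Gpihbp1 (-1.02 ± 0.20) and Nos3 (-0.48 ± 0.14), and after sham Calcrl alone was called; Gpihbp1 after sham passed with length correction (-0.69 ± 0.19, adjusted p = 0.0154). The Nos3 call was lost in 3 of 19 fits that left out 1 library (adjusted p up to 0.0845, without KO AP replicate 3). Plvap stood at 31.3, 37.2, 32.3, 35.6 and 30.1 FPKM in the WT sham colons and at 27.7, 32.99, 41.5, 34.9 and 30.7 FPKM in the WT AP colons. In KO colons Plvap stood at 48.2, 44.96, 27.2, 32.2 and 35.5 FPKM after sham and at 13.6, 5.94, 20.2 and 24.1 FPKM in AP. The 4 KO AP colons, at most 24.1 FPKM, were below every other colon library, the lowest of which held 27.2 FPKM. Plvap differed between genotypes by -1.17 ± 0.27 in AP (adjusted p = 0.00724, limma) and 0.14 ± 0.25 after sham (adjusted p = 0.696). Calcrl stood at 3.37, 3.61, 3.17, 2.98 and 3.48 FPKM in the WT sham colons and at 2.201, 2.67, 2.21, 2.43 and 1.62 FPKM in the WT AP colons. In KO colons Calcrl stood at 1.79, 1.45, 1.71, 1.27 and 1.502 FPKM after sham and at 1.61, 0.601, 1.72 and 2.095 FPKM in AP. After sham the KO values of Calcrl all lay below the WT values, a difference of -0.77 ± 0.15 (adjusted p = 0.00125), and in AP the ranges overlapped, with -0.40 ± 0.16 (adjusted p = 0.0843, and 0.0417 without KO AP replicate 5). Ednrb, Kit, Ramp2 and Tmem100 were not called in colon, with AP differences between -0.75 and -0.12. Aplnr, below the filter, averaged 0.317 FPKM in KO AP colon against 0.679 FPKM in WT AP colon (exact two-sided permutation p = 0.0794).

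Lyve1 (ENSMUSG00000030787, chromosome 7, 110850607 to 110863239 on the minus strand of GRCm38), a hyaluronan receptor and the single lymphatic surface marker, had the largest difference in lung. Lyve1 stood at 209, 327, 268, 317 and 456 FPKM in the WT sham lungs and at 228, 261, 246, 121 and 263 FPKM in the WT AP lungs. In KO lungs Lyve1 stood at 21.8, 39.3, 114, 70.1 and 77.1 FPKM after sham and at 18.8, 23.3, 40.7, 29.7 and 36.9 FPKM in AP. WT AP replicate 4, at 121 FPKM, was the lowest WT lung and lay just above the highest KO lung, at 114 FPKM. Lyve1 was 7.28-fold lower in KO AP lung, -2.86 ± 0.35 in log2 (adjusted p = 3.34e-06, limma), and -2.43 ± 0.35 after sham. Lyve1 stood at 6.69, 7.01, 11.4, 7.25 and 9.77 FPKM in the WT sham colons and at 2.96, 6.75, 6.89, 4.28 and 3.13 FPKM in the WT AP colons. In KO colons Lyve1 stood at 2.67, 1.303, 2.51, 5.72 and 4.28 FPKM after sham and at 4.05, 2.12, 2.72 and 4.72 FPKM in AP. In sham colon the KO values all lay below the WT values (-1.20 ± 0.27, adjusted p = 0.00359), whereas in AP they overlapped (-0.38 ± 0.29, adjusted p = 0.384), and the 2 differences did not themselves differ past the threshold (adjusted p = 0.272). Summed pan-leukocyte and macrophage markers ranged from 223 to 366 FPKM in WT AP lung and from 116 to 207 FPKM in KO AP lung. In sham lung these sums overlapped, from 193 to 320 FPKM in WT and from 150 to 429 FPKM in KO. The part of these cells in the fall of Lyve1 was not tested.

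Of the activation genes, 4 were tested in lung and 2 in colon, and none was called higher in KO. Of all genes, 27.6% were higher in AP lung, 28.8% in sham lung, 7.37% in AP colon and 16% in sham colon. With so few genes tested, the lack of higher calls is not a result about them. Icam1, on which leukocytes arrest through their integrins, was lower in lung. Icam1 stood at 156, 164, 176, 180.3 and 179 FPKM in the WT sham lungs and at 159.7, 173, 165, 114 and 166 FPKM in the WT AP lungs. In KO lungs Icam1 stood at 71.8, 86.3, 88.4, 145 and 104 FPKM after sham and at 74.5, 60.3, 92.2, 58.1 and 89.8 FPKM in AP. Within each treatment the KO lungs lay below the WT lungs. The differences were -1.05 ± 0.17 in AP (adjusted p = 5.50e-05, limma) and -0.82 ± 0.17 after sham (adjusted p = 0.000469). Icam1 stood at 12.3, 6.66, 9.003, 13.1 and 9.73 FPKM in the WT sham colons and at 10.8, 21.2, 12.2, 4.36 and 14.5 FPKM in the WT AP colons. In KO colons Icam1 stood at 2.89, 4.23, 3.19, 4.59 and 15.04 FPKM after sham and at 3.82, 3.37, 2.27 and 3.89 FPKM in AP. KO sham replicate 5, at 15.0 FPKM, stood far above the other 4 KO sham colons and above all 5 WT sham colons. In AP colon Icam1 differed by -1.53 ± 0.38 (adjusted p = 0.0112), and after sham by -0.87 ± 0.36 (adjusted p = 0.0746), which passed without that library (adjusted p = 0.0063) and with length correction (0.0456). The AP call was lost without KO AP replicates 4 and 5 (adjusted p = 0.086).

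Vcam1, the ligand of the integrin VLA-4, moved little in lung. Vcam1 stood at 12.5, 15.6, 13.1, 19.1 and 14.98 FPKM in the WT sham lungs and at 17.4, 17.1, 16.9, 11.6 and 14.7 FPKM in the WT AP lungs. In KO lungs Vcam1 stood at 8.74, 11.2, 14.7, 15.3 and 15.4 FPKM after sham and at 11.5, 10.96, 11.9, 15 and 7.53 FPKM in AP. The ranges overlapped in both treatments. The AP difference of -0.43 ± 0.17 was called (adjusted p = 0.0386, limma) and lost in 7 of 20 fits that each left out 1 library (adjusted p up to 0.124, without KO AP replicate 5), with length correction (-0.30 ± 0.17, adjusted p = 0.146) and without the filter on low values (0.0762), and the sham difference was -0.20 ± 0.17 (adjusted p = 0.316). Vcam1 stood at 6.72, 6.32, 8.69, 7.44 and 8.34 FPKM in the WT sham colons and at 4.95, 11.97, 9.78, 3.83 and 6.9 FPKM in the WT AP colons. In KO colons Vcam1 stood at 2.88, 3.08, 2.65, 3.67 and 5.702 FPKM after sham and at 3.81, 2.403, 2.83 and 4.56 FPKM in AP. After sham the KO colons lay below the WT colons, and in AP the ranges overlapped through WT replicate 4 at 3.83 FPKM. Vcam1 differed by -0.88 ± 0.25 in AP colon (adjusted p = 0.0209), lost in 4 of 19 fits that left out 1 library (up to 0.0704, without KO AP replicate 3) and without KO AP replicates 4 and 5 (0.0686), and by -0.92 ± 0.23 after sham (adjusted p = 0.00747).

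The selectins were low. Selp stood at 1.45, 0.998, 1.404, 1.195 and 1.95 FPKM in the WT sham lungs and at 1.105, 1.21, 1.56, 1.21 and 1.48 FPKM in the WT AP lungs. In KO lungs Selp stood at 0.875, 1.101, 1.47, 1.78 and 0.544 FPKM after sham and at 0.313, 0.532, 0.765, 1.202 and 0.652 FPKM in AP. Selp, the P-selectin of platelet and endothelial granules, differed by -0.47 ± 0.16 in AP lung (adjusted p = 0.01798, limma), with the ranges overlapping through KO replicate 4, and by -0.17 ± 0.16 after sham. The AP call was lost without KO AP replicate 1 (adjusted p = 0.0579). Selp stood at 0.116, 0.297, 0.405, 0.233 and 0.272 FPKM in the WT sham colons and at 0.177, 0.285, 0.455, 0.201 and 0.743 FPKM in the WT AP colons. In KO colons Selp stood at 0.0137, 0.127, 0.176, 0.364 and 1.104 FPKM after sham and at 0.731, 0.124, 0.161 and 0.261 FPKM in AP. Selp in colon overlapped in both treatments, with means of 0.319 against 0.372 FPKM in AP (exact two-sided permutation p = 0.683) and 0.357 against 0.264 FPKM after sham (exact p = 0.857).

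Sele encodes the E-selectin that endothelium makes on inflammatory activation. Sele stood at 0.482, 0.184, 0.256, 0.284 and 0.268 FPKM in the WT sham lungs and at 0.347, 0.552, 0.363, 0.3601 and 0.231 FPKM in the WT AP lungs. In KO lungs Sele stood at 0, 0, 0, 0.213 and 0 FPKM after sham and at 0.04405, 0.0538, 0.162, 0.118 and 0 FPKM in AP. It was thus listed at 0 in 5 of 10 KO lungs and in no WT lung. Whole reads recovered from these values numbered 31 to 104 in the WT lungs and 0 to 55 in the KO lungs, which had more reads in total. The KO lungs with the most, sham replicate 4 and AP replicate 3, are among those that stand apart from their groups. In AP the KO lungs lay below the WT lungs, with means of 0.0756 and 0.371 FPKM (exact two-sided permutation p = 0.00794, the smallest that 5 against 5 allows), and after sham the means were 0.0427 and 0.295 FPKM (exact p = 0.0159). In colon Sele was listed at 0 in 15 of 19 libraries, and the other 4, WT AP replicates 1 and 3, KO sham replicate 5 and KO AP replicate 1, held 0.0157, 0.0263, 0.0114 and 0.0481 FPKM. Angpt2, the Tek ligand that destabilises vessels, differed by -0.79 ± 0.14 in AP lung and -1.06 ± 0.14 in sham lung. In colon Angpt2, below the filter, averaged 0.282 FPKM in KO against 0.707 FPKM in WT in AP (exact p = 0.0159) and 0.304 against 0.661 FPKM after sham (exact p = 0.0238).

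The 3 hemostasis genes differed from each other. Vwf, the platelet tether of endothelial granules, was not called in lung. Vwf stood at 91.6, 96.9, 111, 86.96 and 93.3 FPKM in the WT sham lungs and at 80.96, 96.96, 84.7, 59.2 and 95.96 FPKM in the WT AP lungs. In KO lungs Vwf stood at 36.6, 64, 104, 89.8 and 91.9 FPKM after sham and at 60.2, 94.5, 56.5, 34.1 and 112 FPKM in AP. All lung groups overlapped, with differences of -0.32 ± 0.28 in AP (adjusted p = 0.343, limma) and -0.40 ± 0.28 after sham. Vwf stood at 3.52, 2.22, 3.73, 2.75 and 3.08 FPKM in the WT sham colons and at 1.55, 3.41, 3.92, 2.73 and 1.38 FPKM in the WT AP colons. In KO colons Vwf stood at 1.22, 2.22, 1.33, 1.89 and 2.65 FPKM after sham and at 0.995, 0.914, 0.765 and 1.397 FPKM in AP. In AP colon KO replicate 5, at 1.4 FPKM, reached into the WT range by a small margin. Vwf differed by -0.79 ± 0.21 in AP colon (adjusted p = 0.0161) and -0.52 ± 0.20 after sham (adjusted p = 0.0555, and 0.0334 without KO sham replicate 5); the AP call was lost without KO AP replicates 4 and 5 (adjusted p = 0.0701).

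Thbd, thrombomodulin, which turns thrombin towards anticoagulation, was lower in both tissues and both treatments, by -1.60 ± 0.27 in AP lung and -1.11 ± 0.27 in sham lung. Thbd stood at 7.02, 6.84, 8.74, 9.79 and 8.05 FPKM in the WT sham colons and at 6.04, 8.98, 7.796, 5.93 and 4.86 FPKM in the WT AP colons. In KO colons Thbd stood at 4.64, 3.23, 3.03, 5.73 and 5.96 FPKM after sham and at 2.92, 1.89, 2.52 and 3.501 FPKM in AP. The KO colons lay below the WT colons within each treatment, with differences of -1.05 ± 0.19 in AP (adjusted p = 0.00202, limma) and -0.75 ± 0.18 after sham. Procr (ENSMUSG00000027611, chromosome 2, 155751117 to 155755471 on the plus strand of GRCm38), the endothelial receptor for protein C, was higher in KO lung. Procr stood at 3.02, 2.41, 2.69, 2.36 and 2.76 FPKM in the WT sham lungs and at 3.09, 2.77, 3.21, 2.63 and 2.53 FPKM in the WT AP lungs. In KO lungs Procr stood at 22.6, 15.7, 7.37, 4.33 and 6.06 FPKM after sham and at 13.99, 5.36, 9.32, 9.18 and 4.74 FPKM in AP. Every KO lung exceeded every WT lung, and KO values spread from 4.33 to 22.6 FPKM against 2.36 to 3.21 FPKM in WT. Procr differed by 1.22 ± 0.31 in AP (adjusted p = 0.00271) and 1.52 ± 0.31 after sham (adjusted p = 0.000384). In colon Procr was lower in KO AP (-1.31 ± 0.30, adjusted p = 0.007199) and differed by -0.09 ± 0.28 after sham.

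Across tissues, 10 of the 31 genes tested in both were lower in KO in both tissues and both treatments: Cdh5, Erg, Fli1, Flt1, Flt4, Kdr, Robo4, Tek, Thbd and Tie1. Of all 13623 genes tested in both tissues, 3.82% were lower in all 4 comparisons, which share libraries within a tissue. In colon Erg and Flt4 passed the filter through WT libraries alone, so their place among the 10 is no independent support. Flt4, Kdr, Robo4 and Tie1 lost at least 1 of these calls under an alternative, Kdr that in sham colon with length and GC correction (adjusted p = 0.0621). In lung 9 genes passed in neither treatment (Emcn, Eng, Esam, Gpihbp1, Nos3, Ramp2, Sox17, Sox18 and Vwf), and in colon 7 (Ednrb, Egfl7, Emcn, Kit, Ramp2, Sox17 and Tmem100). Emcn, Ramp2 and Sox17 stood on both of these lists, Emcn with the exceptions given above.

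To compare the 36 with other endothelial genes, 8 genes outside the 36 served as reference: Pecam1, Cldn5, Clec14a, Mmrn2, Ptprb, Ecscr, Sox7 and Adgrl4. In colon there were 7, since Sox7 did not pass the filter. In AP, 6 of 8 reference genes were lower in KO lung and 5 of 7 in KO colon, with list medians of -1.55 and -0.74. The 8 differences in AP lung ran from -1.91 to -0.28, so their mean is a level of these genes and no measure of endothelial content. Pecam1, the platelet-endothelial adhesion molecule, differed by -1.57 ± 0.22 in AP lung and -1.11 ± 0.19 in AP colon. The mean log2 level of the reference genes was 5.95 to 6.35 in the 10 WT lungs and 4.08 to 5.83 in the 10 KO lungs, without overlap.

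Measured against that mean, 2 of 34 genes remained lower in AP lung, Lyve1 (-1.60 ± 0.26) and Cdh5 (-1.16 ± 0.23), against 0.945% of all genes, and 15 were higher, against 82.9% of all genes. In sham lung 5 were lower, Lyve1, Cdh5, Ednrb, Flt4 and Flt1, against 1.63% of all genes, and 14 higher, against 69.8%. The calls of Flt1 and Flt4 against the reference in sham lung were lost with length correction (-0.19 ± 0.21, adjusted p = 0.41, and -0.37 ± 0.24, adjusted p = 0.149), and that of Flt1 also with library weights (0.0672) and with only the compared groups fitted (0.0707). Procr (2.49 ± 0.47) and Egfl7 (2.07 ± 0.30) rose most in AP. Among KO sham lungs Procr was highest where the reference was lowest (22.6 FPKM at 4.08) and lowest where it was highest (4.33 FPKM at 5.83). Among KO AP lungs Procr was also lowest where the reference was highest (4.74 FPKM at 5.33). The lowest KO AP reference, 4.58, however went with only 5.36 FPKM, and the highest Procr value, 13.99 FPKM, with 4.65. The cell source of Procr was not tested. Nos3, Esam, Ramp2 and Vwf, each uncalled before, were among the genes that rose relative to the reference, by 0.95 to 1.11 in AP. Since most lung genes rose on this scale, such a rise in a gene that was not higher on the FPKM scale means that it fell less than the reference.

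In AP colon, 1 of 31 remained lower against the reference, Cdh5 (-0.55 ± 0.12, adjusted p = 0.000749, limma), against 2.69% of all genes, and 1 was higher, Ednrb (0.61 ± 0.19), against 67.9%. In sham colon 3 were lower, Lyve1 (-0.59 ± 0.22), Flt4 (-0.50 ± 0.20) and Cdh5 (-0.41 ± 0.11), against 2.05% of all genes, and 8 were higher, against 59.5%. The 8 were Sox17, Sox18, Nos3, Plvap, Tmem100, Egfl7, Eng and Esam, between 0.37 and 0.77. The Flt4 call against the reference in sham colon was lost in 8 of 19 fits that left out 1 library (adjusted p up to 0.108) and with length correction (-0.23 ± 0.19, adjusted p = 0.269). The Lyve1 call there was lost in 5 of 19 such fits (up to 0.0884), with a pseudocount of 0.1 (0.0671) and with library weights (0.146). In AP colon Lyve1 differed from the reference by 0.35 ± 0.24, and by 0.64 ± 0.29 with a pseudocount of 0.1 (adjusted p = 0.0492).

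**Figure D3:**
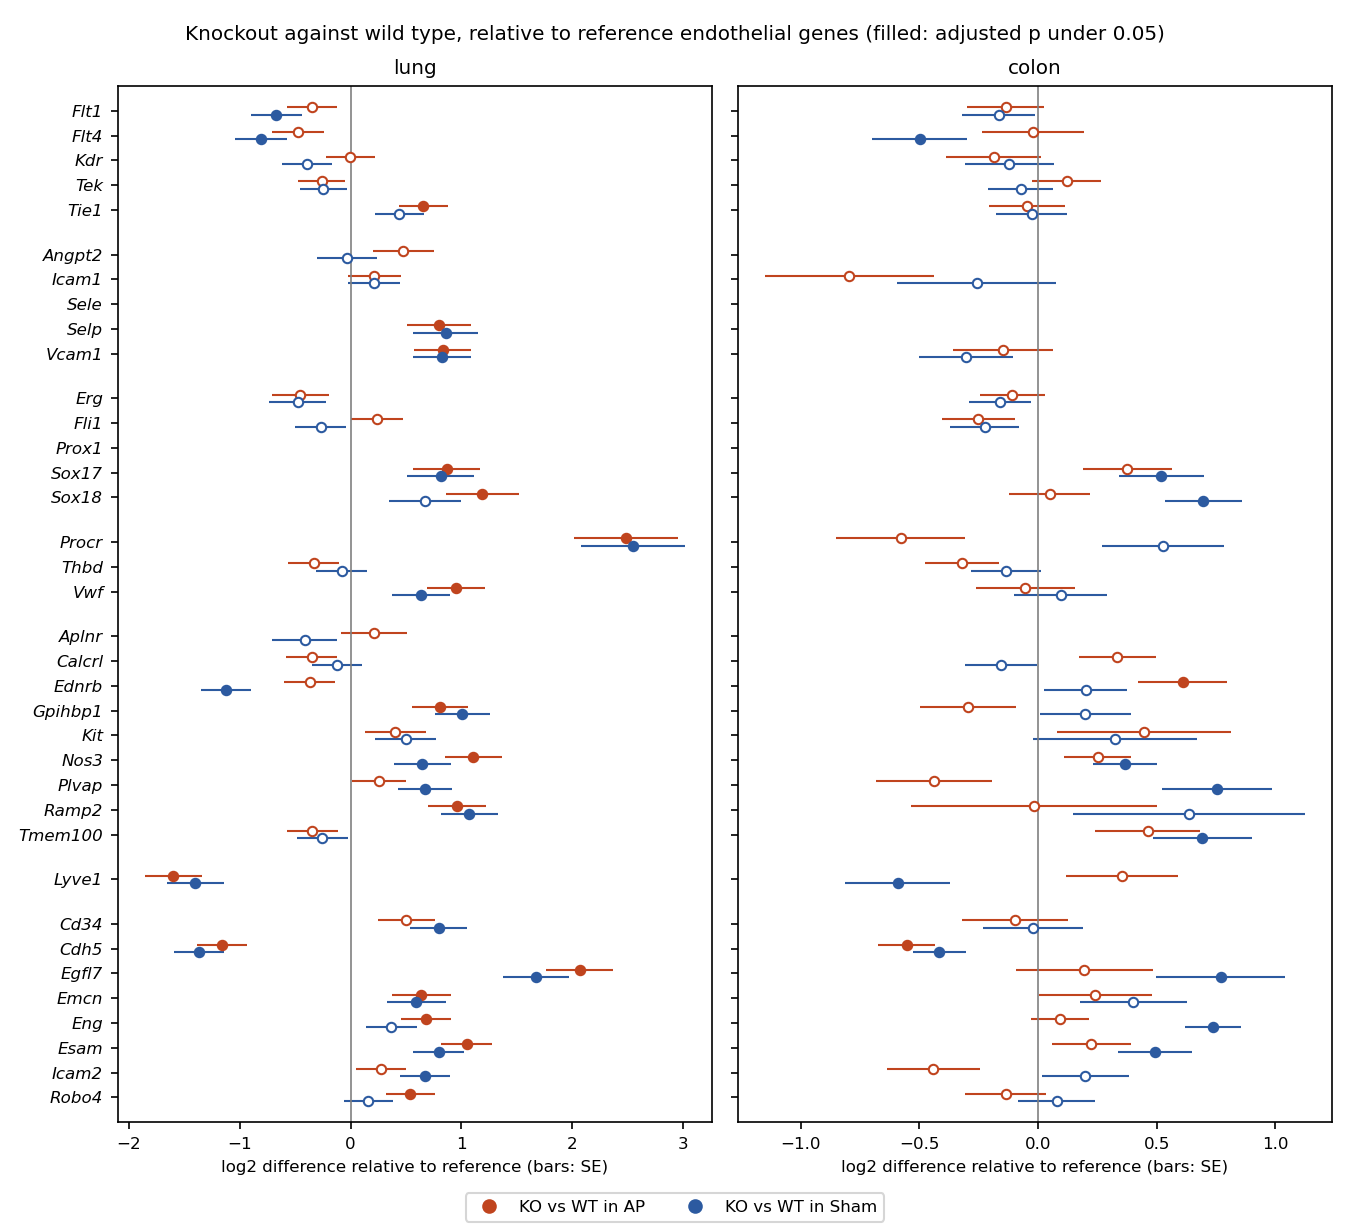
Log2 difference between KO and WT after subtracting the mean of the reference endothelial genes in each library (points, with SE bars), in AP (red) and after sham (blue); filled points have an adjusted p under 0.05 and rows without points were not tested. Lyve1 and Cdh5 lie left of 0 in lung and Cdh5 in colon, while Procr and Egfl7 lie farthest right in lung.

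Pancreatitis itself was compared with sham within each genotype. In lung none of the 34 genes was called in WT, against 0.0814% of all genes, and none in KO, against 0.0125%. At an unadjusted p under 0.05, limma gave 0 in WT, against 6.67% of all genes. In KO it gave 4, against 14% (Cd34, Lyve1, Icam1 and Selp, all lower in AP). The 4 groups of a tissue shared 1 estimate of spread, so the spread of KO libraries entered the WT comparison. Every WT AP lung lay below every WT sham lung for Fli1 (9.32 to 10.1 against 11.3 to 15.3 FPKM) and Cdh5 (183 to 241 against 246 to 292 FPKM). The other tested genes overlapped between these groups. The share of all genes without overlap was not counted, so no response is read from these values. The lowest p in WT lung belonged to Flt4 (-0.43 ± 0.21, adjusted p = 0.7605) and Fli1 (-0.35 ± 0.23), whose library values are given with the receptors and transcription factors. In KO lung they belonged to Cd34 and Lyve1. Cd34 stood at 54.5, 54.3, 47.96, 58.5 and 51.6 FPKM in the WT sham lungs and at 62.1, 53.3, 50.2, 46.9 and 47.7 FPKM in the WT AP lungs. In KO lungs Cd34 stood at 29.8, 37.05, 40.2, 81.03 and 51.2 FPKM after sham and at 31.5, 24.4, 41.3, 37.2 and 20.8 FPKM in AP. The KO sham and KO AP ranges of Cd34 overlapped, and its difference was -0.57 ± 0.21 (adjusted p = 0.256). Icam2, Lyve1 and Thbd passed in KO lung without KO sham replicate 1 (adjusted p = 0.0367, 0.048 and 0.048). Lyve1 differed by -0.93 ± 0.35 in KO lung and -0.50 ± 0.35 in WT lung. The activation genes Icam1, Vcam1 and Selp differed between AP and sham by -0.15, 0.04 and -0.04 in WT lung, with SE of 0.16 to 0.17, and Sele averaged 0.371 FPKM in AP and 0.295 FPKM after sham (exact two-sided permutation p = 0.317).

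In WT colon none of 31 genes was called, against 0% of all genes. There limma gave 2 at an unadjusted p under 0.05, Calcrl (-0.43 ± 0.15) and Lyve1 (-0.74 ± 0.27), against 6.25% of all genes. In KO colon none was called, against 0.04% of all genes, but 15 of 31 had an unadjusted p under 0.05, against 18.7% of all genes, and 29 of 31 a negative difference, against 53.8%, with a median of -0.444 against -0.028 over all genes. The lowest p belonged to Sox18 (-0.88 ± 0.18, adjusted p = 0.0652) and Plvap (-1.31 ± 0.27, adjusted p = 0.0652), whose KO AP libraries lay below the KO sham libraries. Eng (-0.68 ± 0.15) and Gpihbp1 (-0.80 ± 0.20) followed. Plvap passed without KO AP replicates 4 and 5 (-1.91 ± 0.25, adjusted p = 0.0138), and 5 genes, Sox18, Plvap, Eng, Esam and Gpihbp1, passed without KO sham replicate 1 (adjusted p between 0.0112 and 0.0369). The mitochondrial share ran from 10.6% to 19.1% in the KO AP colons and from 4.62% to 13.5% in the KO sham colons, and its part in these differences was not tested. Over the 31 genes, the KO colon difference had a Spearman correlation of 0.505 with transcript length and -0.495 with GC content. Over all genes these were 0.24 and -0.143. Genes share libraries, so these correlations are descriptions.

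**Figure D4:**
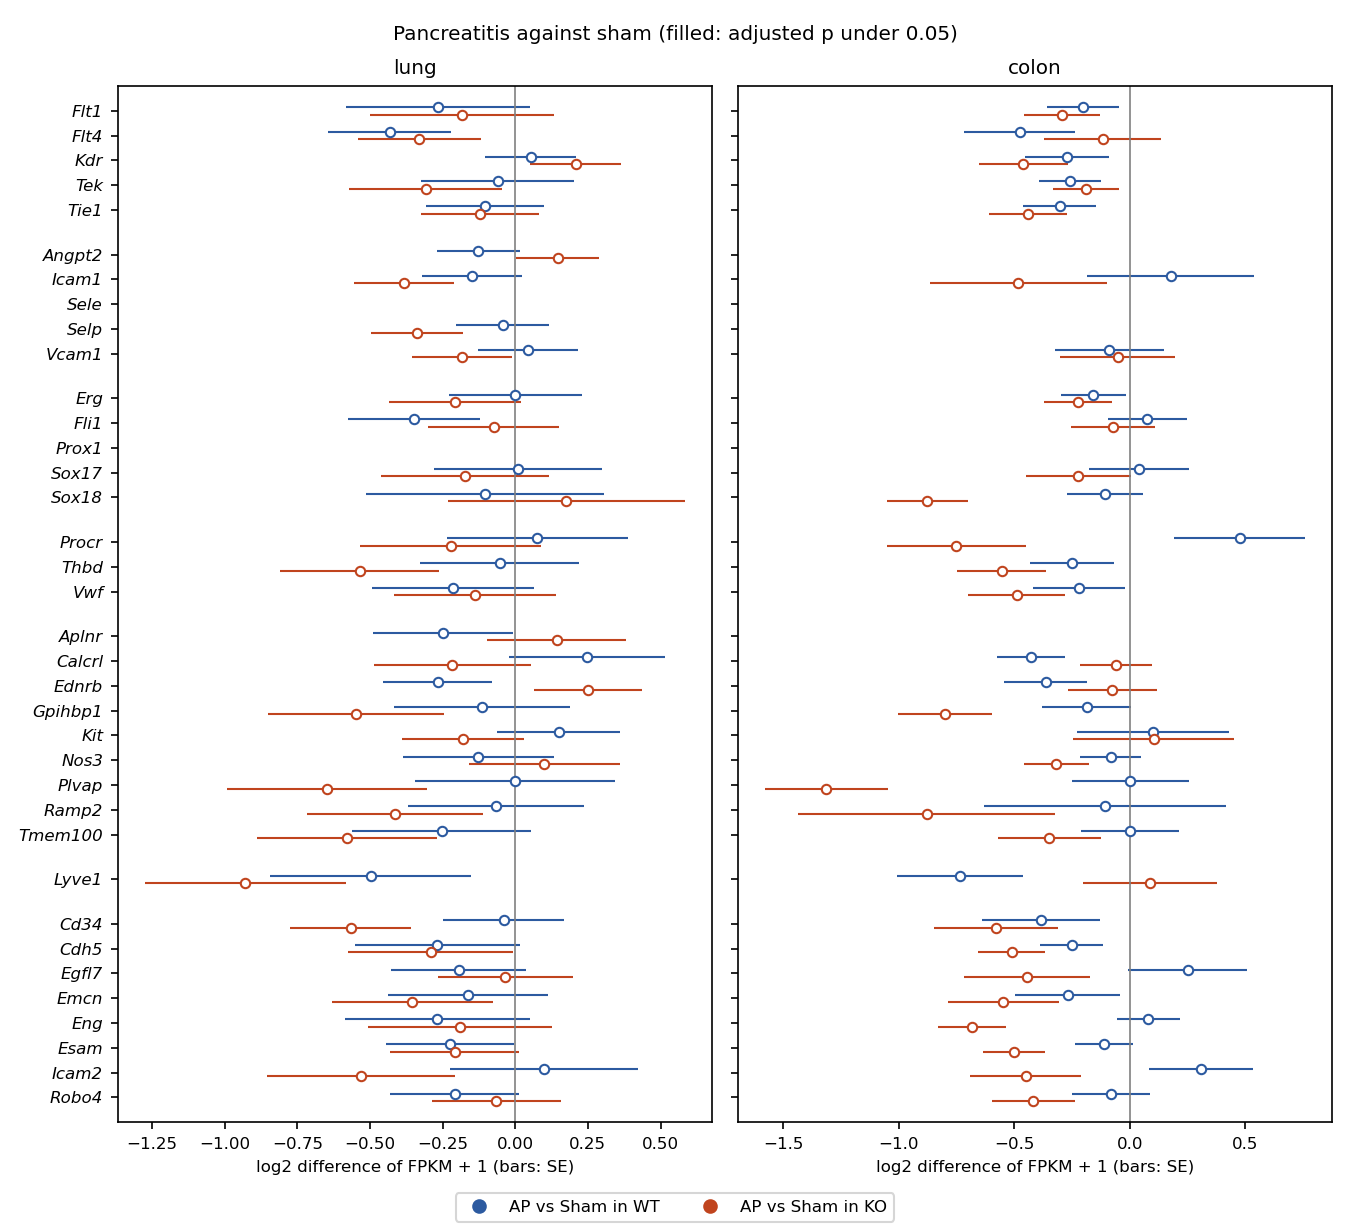
Log2 difference of FPKM + 1 between AP and sham in WT (blue) and KO (red), with SE bars, lung at left and colon at right; rows without points were not tested and no point has an adjusted p under 0.05. In KO colon 29 of 31 points lie left of 0, Plvap farthest at -1.31.

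Whether the response to pancreatitis differed between genotypes was tested as an interaction. None of 34 genes was called in lung, against 0% of all genes, and 0 had an unadjusted p under 0.05 in limma, against 8.66%. In colon none of 31 was called, against 0% of all genes, and 7 had an unadjusted p under 0.05 in limma, against 18.8%. The lowest adjusted p in colon, 0.107, was shared by Eng (-0.76 ± 0.20) and Plvap (-1.31 ± 0.37), with Eng passing without KO sham replicate 1 (adjusted p = 0.0407); next came Sox18 (-0.77 ± 0.24) and Procr (-1.23 ± 0.41). Calls made in AP and not after sham, 5 genes in lung and 11 in colon, are therefore not shown to differ between treatments.

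Other genes of the same pathways were counted over whole lists, to be read against the 28.1% lower and 27.6% higher of all genes in AP lung and the 10.9% and 7.37% in AP colon. Of 22 other VEGF, Tie and Notch genes, 12 were lower and 3 higher in KO AP lung, and 2 of 18 lower and 1 higher in KO AP colon. Angptl4, an inhibitor of lipoprotein lipase, differed by -2.35 ± 0.29 in lung and -0.86 ± 0.17 in colon, Nrp2, a co-receptor for VEGF-C, by -0.91 ± 0.14 in lung, and Hes1, a Notch target, by 1.32 ± 0.20 in lung and 0.64 ± 0.19 in colon. In colon Nrp1, the VEGF-A co-receptor, differed by -0.69 ± 0.23. Of the BMP, sphingosine and shear response genes, 6 of 14 were lower and 1 higher in lung, and 4 of 12 lower in colon. Ets1, an ETS factor of endothelium and lymphocytes, differed by -1.63 ± 0.18 in lung and -1.87 ± 0.35 in colon; Bmpr2, a BMP receptor, by -1.05 ± 0.20 and Bmp6 by -1.29 ± 0.29 in lung; and Acvrl1, a BMP receptor of endothelium, by -0.97 ± 0.23 and S1pr1, the sphingosine receptor, by -0.87 ± 0.22 in colon.

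Other capillary and venous genes were lower in 12 of 14 cases in KO AP lung, led by Adgrf5 (-1.999 ± 0.21), Cd36, a fatty acid receptor (-2.21 ± 0.28), and Ece1, which activates endothelin (-1.48 ± 0.19). In KO AP colon 8 of 16 were lower and 2 higher, with Fabp4, a fatty acid carrier, at -1.83 ± 0.28, Tspan7 at 0.96 ± 0.17 and Car4, also made by colon epithelium, at 1.26 ± 0.23. Of other lymphatic genes, 4 of 6 were lower and 1 higher in lung, led by Mmrn1 (-0.94 ± 0.13), Reln (-0.51 ± 0.14) and Thy1 (-1.22 ± 0.34). In colon 2 of 6 were lower, Pdpn, podoplanin (-0.56 ± 0.17), and Ccl21a, a chemokine of lymphatic vessels (-1.09 ± 0.34); Mmrn1 differed by -0.72 ± 0.25 (adjusted p = 0.0503, limma).

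Of other activation and hemostasis genes, 4 of 11 were lower and 2 higher in lung: Plat, the tissue plasminogen activator, differed by -2.16 ± 0.26, Tnfaip3, a brake on NF-kappa-B, by -0.78 ± 0.14, and Ptgs2, the inducible cyclooxygenase, by 1.43 ± 0.28. In colon 1 of 12 was higher, Tfpi, the tissue factor pathway inhibitor (0.52 ± 0.18), and none lower; Madcam1, the gut addressin, differed by -0.92 ± 0.36 and Ptgs2 by -0.55 ± 0.23, both uncalled. The list medians in AP were -0.502, -0.639, -1.24, -0.554 and -0.124 in lung, in the order of the 5 lists, and -0.02, -0.27, -0.354, -0.639 and -0.288 in colon, against 0.004 and -0.011 over all genes. In sham lung the same lists had 12 of 22, 9 of 14, 10 of 14, 2 of 6 and 3 of 11 genes lower, against 30% of all genes, and 3, 1, 0, 1 and 3 higher, against 28.8%. In sham colon they had 4 of 18, 4 of 12, 9 of 16, 3 of 6 and 1 of 12 lower, against 15.4%, and 2, 0, 1, 0 and 0 higher, against 16%.

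Some markers of other cells differed with genotype, and their part in the endothelial differences was not tested. The counts are to be read against 28.1% lower and 27.6% higher of all genes in AP lung. These shares were 30% and 28.8% in sham lung, and 10.9% and 7.37% in AP colon. In AP lung 8 of 11 pan-leukocyte and macrophage markers and 5 of 9 fibroblast and mesothelial markers were lower in KO and none higher, while 4 of 6 epithelial markers were higher. After sham, 4 of 11 leukocyte markers were lower in lung, near the share of all genes. Of 11 pericyte and smooth muscle markers in AP lung, 4 were higher and 3 lower, also near the shares of all genes. In AP colon 6 of 10 leukocyte and 4 of 8 fibroblast markers were lower and 5 of 11 pericyte and smooth muscle markers higher. The summed fibroblast markers ranged from 297 to 413 FPKM in WT AP lung and from 132 to 275 FPKM in KO AP lung, and the summed smooth muscle markers from 287 to 1563 FPKM in WT AP colon and from 1347 to 2643 FPKM in KO AP colon. Of 8 platelet markers, which bear on Selp and Vwf, 1 was lower in KO AP lung and none higher; their sum was 30.4 to 66.1 FPKM in WT and 33.9 to 57.2 FPKM in KO. In sham lung 2 were higher in KO and none lower, with sums of 30.3 to 52.9 FPKM in WT and 53.1 to 138 FPKM in KO. Of 4 tested enteric glia and neuron markers, 2 were higher and 1 lower in KO lung in each treatment; Uchl1 differed by 4.03 ± 0.65 in AP lung. Their sum was 6.61 to 11.1 FPKM in WT and 45.4 to 218 FPKM in KO in AP lung, and 8.21 to 9.92 FPKM against 9.99 to 299 FPKM in sham lung. In AP colon 2 of 7 of them were higher and none lower. Of the mast cell and Cajal cell markers, which bear on Kit, 1 of 3 and 0 of 3 were higher and 0 of 3 and 2 of 3 lower in AP lung. No marker of these lists was listed at 0 in every library of a tissue.

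Transcript length moved with the genotype difference, and also with the difference between AP and sham within a genotype. Over genes, the Spearman correlation of the log2 difference with the length of the longest transcript in the GRCm38 annotation was -0.435 over 15879 genes and -0.506 over the 34 in sham lung, -0.339 and -0.356 in AP lung, -0.317 over 14937 genes and -0.476 over the 31 in sham colon, and -0.051 and 0.153 in AP colon; genes share libraries and these are descriptions. Split at 2000 bases, a bound chosen after the values were seen, 1 of 9 short and 17 of 25 longer endothelial genes were lower in sham lung, and 0 of 9 and 13 of 22 in sham colon. In AP lung these were 3 of 9 and 20 of 25, and in AP colon 6 of 9 and 16 of 22. Over all genes the lower shares were 13.1% and 37.3% in sham lung, 8.74% and 18.2% in sham colon, 15% and 33.9% in AP lung, and 11.9% and 10.5% in AP colon. With length correction the calls of Kit in sham lung, Robo4 and Vcam1 in AP lung, Tie1 and Egfl7 in both lung treatments and Robo4 in sham colon were lost. Calls were gained for Gpihbp1 in AP lung, for Esam and Icam2 in sham lung, and for Gpihbp1, Esam, Icam2 and Icam1 in sham colon. The other calls between KO and WT were kept, and with length and GC correction Kdr in sham colon was lost.

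**Figure D5:**
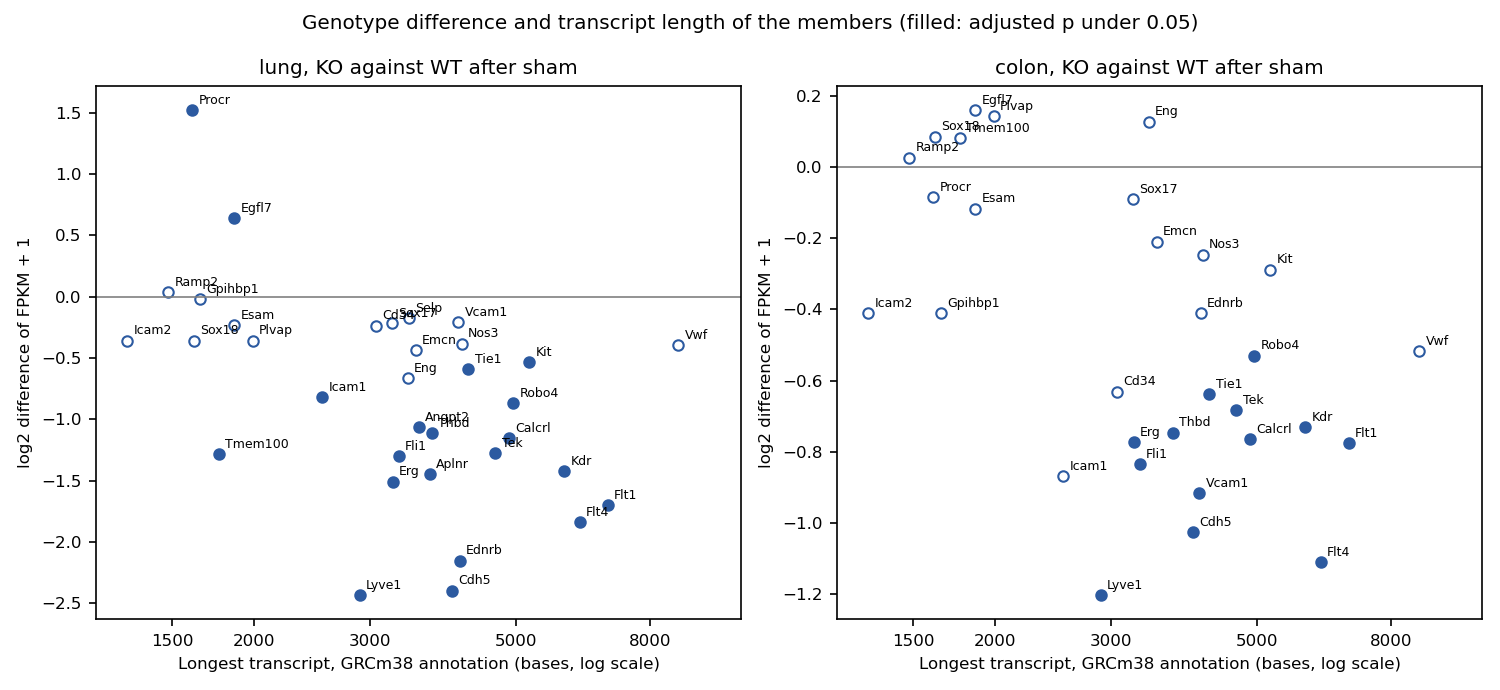
Log2 difference of FPKM + 1 between KO and WT after sham against the length of the longest transcript (log scale), 1 point per gene, lung at left and colon at right; filled points have an adjusted p under 0.05. In lung the 2 higher genes, Procr and Egfl7, are shorter than 2000 bases, and in colon all 13 lower genes have 2000 bases or more.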

How the data were processed

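The deposited files hold gene-level FPKM values made by the authors, 1 table per tissue, with 39 libraries in 8 groups; every column was matched to a sample by its name and 0 columns were left unmapped. The submitters' processing notes name HISAT2 2.1.0, StringTie 1.3.3b and mm39; the annotation, strand setting and filters were not given in the sources used here. No count table was used. Whole reads were recovered from the steps of low values of single-transcript genes (98.7% to 99.3% of values within 0.02 read of a whole number), which gave the totals per library. A gene was kept in a tissue when 4 or more of its libraries reached 1 FPKM (15978 genes in lung, 15001 in colon). The kept genes were fitted on log2(FPKM + 1) with limma 3.58.1 in R 4.3.3: group means, moderated variances with a trend, Benjamini-Hochberg adjustment over all genes tested. Tests were made within a tissue's table only, and in the main fit the 4 groups of a tissue shared 1 estimate of spread. Genes below the filter were compared by exact permutation tests (scipy 1.17.1). The fit relative to the reference endothelial genes subtracted each library's mean of those genes. The steps were tested on simulated data. Promoters come from RefSeq (GRCm38.p6), and transcript lengths and exon overlaps from GENCODE on GRCm38, used without coordinates of the authors' build. All 36 genes are named; every library's value is given for the genes with the lowest p in a comparison and for Cdh5, Vcam1, Icam1, Sele, Selp, Lyve1 and Vwf; of each other list, up to 3 genes with the lowest p in AP are named. The members and lists were chosen with earlier results of these data known. Alternatives changed the pseudocount, the filter, scaling, the groups fitted, library weights, a replicate block, transcript length and GC, and the libraries included.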

Additional observations from a re-analysis of the deposited data

Results flagged for a closer look

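Within groups of 4 or 5 libraries, a library is named here where its distance to the nearest other value takes up most of the range of its group (Dixon's criterion); chance gives this in about 1 in 20 groups.

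In lung, KO AP replicate 5 was high in 5 genes: Flt4 at 6.43 FPKM against 2.56 to 3.61 in the other 4 libraries, Eng at 268 FPKM against 105 to 140.0, Robo4 at 32.2 FPKM against 13.2 to 16.8, Ramp2 at 801 FPKM against 290.0 to 401, and Sox18 at 290.0 FPKM against 66.1 to 79.3. WT AP replicate 4 was low in 3 genes: Cdh5 at 183 FPKM against 232 to 241, Lyve1 at 121 FPKM against 228 to 263, and Icam1 at 114 FPKM against 160.0 to 173. This library had the highest mitochondrial share of the WT lungs, 11.4% of FPKM, and the part of that share was not tested. Among WT sham lungs, Eng in replicate 1 was low at 215 FPKM (others 252 to 267), Emcn in replicate 4 high at 24.0 FPKM (others 15.6 to 17.3), and Angpt2 in replicate 5 low at 3.82 FPKM (others 5.66 to 6.13).

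In colon, Ramp2 was high in WT sham replicate 2 at 63.7 FPKM (others 8.84 to 12.3) and in WT AP replicate 3 at 40.5 FPKM (others 9.90 to 15.3). Egfl7 was high in WT sham replicate 4 at 18.1 FPKM (others 12.7 to 13.6), and Icam1 in KO sham replicate 5 at 15.0 FPKM (others 2.89 to 4.59). Procr was low in WT AP replicate 4 at 6.61 FPKM (others 9.95 to 11.0), and Sox17 in KO AP replicate 3 at 0.234 FPKM (others 0.937 to 1.06).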

How the results depend on the processing

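No gene's difference that was called changed sign under any alternative. The counts of genes called between KO and WT, 25 in AP lung, 20 in sham lung, 22 in AP colon and 13 in sham colon, stayed within 1.5 times under every alternative (22 to 27, 19 to 26, 17 to 23 and 12 to 16). Leaving out 1 library at a time gave 23 to 27, 18 to 21, 17 to 24 and 12 to 17. For AP against sham, leaving out 1 library gave 0 to 3 genes in KO lung (3 without KO sham replicate 1), 0 to 5 in KO colon (5 without KO sham replicate 1), 0 in WT of either tissue, and 0 in lung and 0 to 1 in colon for the difference between genotypes. With library weights these comparisons gave 1 gene in WT lung, 3 in KO colon and 2 for the difference in colon; without KO AP replicates 4 and 5, KO colon gave 1. Against the reference genes, the count in AP lung (17) ran from 15 to 22 and in sham lung (19) from 16 to 21 when 1 library was left out, and the latter was 12 with only the compared groups fitted. In AP colon the count against the reference (2) was 7 with a pseudocount of 0.1, 7 without the filter, 5 with library weights, 5 with length correction, 4 with length and GC correction, 4 with a replicate block and length correction, 4 without KO AP replicates 4 and 5, and 2 to 6 with 1 library left out. In sham colon that count (11) was 6 with length correction, 5 with length and GC correction, 6 with a replicate block and length correction, and 7 to 12 with 1 library left out. The cause of these changes was not tested. Within a tissue, same-numbered libraries of different groups were correlated by their deviations from group means. The median was -0.034 over 30 pairs in lung (-0.32 to 0.386) and -0.106 over 27 in colon (-0.524 to 0.465). Differently numbered pairs had medians of -0.011 and 0.021. Pairing between lung and colon was not tested, and the labels do not say what a number shares. With a replicate block 24 and 20 genes were called in lung (AP and sham), and 20 and 13 in colon. Groups of 4 or 5 libraries and FPKM near 1 limit what could be detected in colon.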
